A study of Homo sapiens with 4 samples.

Results

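The genes described here are MDM2, MDM4 and 7 target genes of the tumour suppressor p53 (CDKN1A, TP53INP1, FAS, TP53I3, SESN1, ZMAT3 and GDF15), measured in DAOY cells after lowering of ZFX. They are named by symbol and not by their values, although earlier results of these data were known when they were chosen. They make up 9 of the 18417 genes that have a probe set with exactly 1 gene symbol. Each of the 9 has 1 such probe set, and all 9 passed the filter on low intensity, which kept 13813 genes. DAOY is an established human medulloblastoma cell line, and ZFX, a gene of the X chromosome, encodes a zinc finger protein that regulates transcription. The knockdown group consists of 3 samples that received lentivirus with the anti-ZFX short hairpin RNA H2, H3 or H4, 1 array each. The control is 1 sample that received lentivirus with a scrambled, non-targeting hairpin. All 4 samples were exposed to virus for 16 to 24 hours, recovered for 48 hours, and were taken about 48 hours into selection with puromycin at 2 ug/mL, so the control carries virus and drug selection too. Nothing in the labels says whether a transduction was repeated, and each hairpin is a different reagent, so the spread within the knockdown group includes differences between hairpins.

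As background, p53 is a transcription factor that is held at a low level by MDM2, a ubiquitin ligase that marks it for degradation, and by MDM4, a related protein that binds p53 and blocks its activity. MDM2 is itself a target of p53, so both proteins form a feedback loop. Damaged or stressed cells with working p53 raise genes that stop the cell cycle, promote cell death, limit oxidative damage or repair DNA.

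The promoters of these genes are shown first, because a reader who follows p53 targets will want to see which start sites hold a p53-like sequence. RefSeq windows (GRCh38.p14) of 300 bases, from 250 before to 50 after a transcript start, were at hand for 8 of the 9 genes (not TP53INP1), in 16 windows. The p53 consensus consists of 2 adjoining 10-base blocks and reads the same on both strands. Each window was searched for its closest match with no spacer between the blocks. A limit of 3 mismatches in 20 bases was set after the sequences had been seen. Sites outside the windows, or with a spacer, could not be found, so a gene without a match may still have a p53 site. A match within this limit lay near a start of MDM2, FAS, SESN1 and GDF15, that is, in 4 of 8 genes, where 6.39% of all 27305 genes have one. These 8 genes have more windows per gene than the 35116 windows of all genes give, so a match had more places to fall. By window, 5 of the 16 held a match, where 5.2% of all windows did, and 2 of the 5 are overlapping windows of MDM2 that hold the same match. With at most 2 mismatches MDM2 and FAS were left, in 3 windows, against 0.649% of all windows. The capitals mark only the closest match of each window. The MDM2 window holds a further stretch within the limit, agttaagtcctgacttgtct, which is left in lower case. The first window belongs to the internal promoter of MDM2, known as the one that answers to p53, on the plus strand at chr12:68808767-68809066. The FAS stretch lies at chr10:88991289-88991348 on the plus strand, and the SESN1 stretch at chr6:109008998-109009057 on the minus strand. The matches begin at position -94 from the MDM2 start, -122 from the FAS start and -49 from the SESN1 start. MDM2 and FAS each had 2 mismatches and SESN1 had 3.
MDM2: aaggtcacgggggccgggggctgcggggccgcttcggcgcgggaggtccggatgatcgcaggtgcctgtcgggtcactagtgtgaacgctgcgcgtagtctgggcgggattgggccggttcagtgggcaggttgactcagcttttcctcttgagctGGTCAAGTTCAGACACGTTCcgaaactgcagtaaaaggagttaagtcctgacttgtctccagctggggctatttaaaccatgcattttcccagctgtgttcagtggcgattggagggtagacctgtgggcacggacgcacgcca
FAS: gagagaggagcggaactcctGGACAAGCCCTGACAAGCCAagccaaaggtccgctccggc
SESN1: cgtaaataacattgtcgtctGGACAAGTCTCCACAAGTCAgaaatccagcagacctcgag

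For ZFX, the reported binding motif has the core AGGCCT, which also reads the same on both strands. Of the 8 genes, only MDM4 had this core in a window, against 13.0% of all genes. It began at position -57 from the start, and the stretch shown lies at chr1:204516322-204516381 on the plus strand, with the core in capitals.
MDM4: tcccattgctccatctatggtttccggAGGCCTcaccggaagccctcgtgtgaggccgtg
These matches are letters in a window, and no binding of p53 or ZFX was measured here.

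ZFX, the targeted gene, was lower on each knockdown array. Its probe set read 744.9, 749.6 and 995.6 with H2, H3 and H4, against 1430 on the scrambled array, or 52.1%, 52.4% and 69.6% of the scrambled value. Hairpin H4 thus left the most ZFX signal. Of 13 markers of neural and medulloblastoma cells, 11 had a probe set and 8 passed the intensity filter, among them VIM and PTCH1, while GLI1, NES and MAP2 lay under it. Of 10 markers of other cell types, 7 lay under the filter (among them PTPRC, EPCAM and PECAM1) and CD14, DES and COL1A1 passed. The array with H2 stood furthest from the scrambled array, with 6.6% of the 13813 genes at least 1.5-fold away in either direction, where 1.67% were with H3 and 2.78% with H4. All intensities had been summarised and normalized by RMA before deposit, and log2 of them was taken. Differences are knockdown minus scrambled on the log2 scale, and errors are SDs over the 3 hairpins.

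Across the 9 genes the directions were split. In bulk RNA, fewer cells with a transcript and fewer transcripts per cell cannot be told apart. TP53INP1, SESN1, GDF15 and CDKN1A were lower than on the scrambled array with all 3 hairpins, and MDM2, ZMAT3 and MDM4 were higher with all 3. The 4 lower genes compare with 30.6% of all genes kept, and the 3 higher genes with 16.9%. CDKN1A belongs to the lower genes only in the values as deposited, because its H4 difference of -0.002 turned positive under each of 3 other scalings. FAS and TP53I3 lay on both sides, although TP53I3 was higher with all 3 hairpins under each of those scalings and FAS under quantile normalization. No gene of the 9 was at least 1.5-fold lower with every hairpin, as 0.311% of all genes were, and none was at least 1.5-fold higher with every hairpin, as 0.0507% were.

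**Figure D1:**
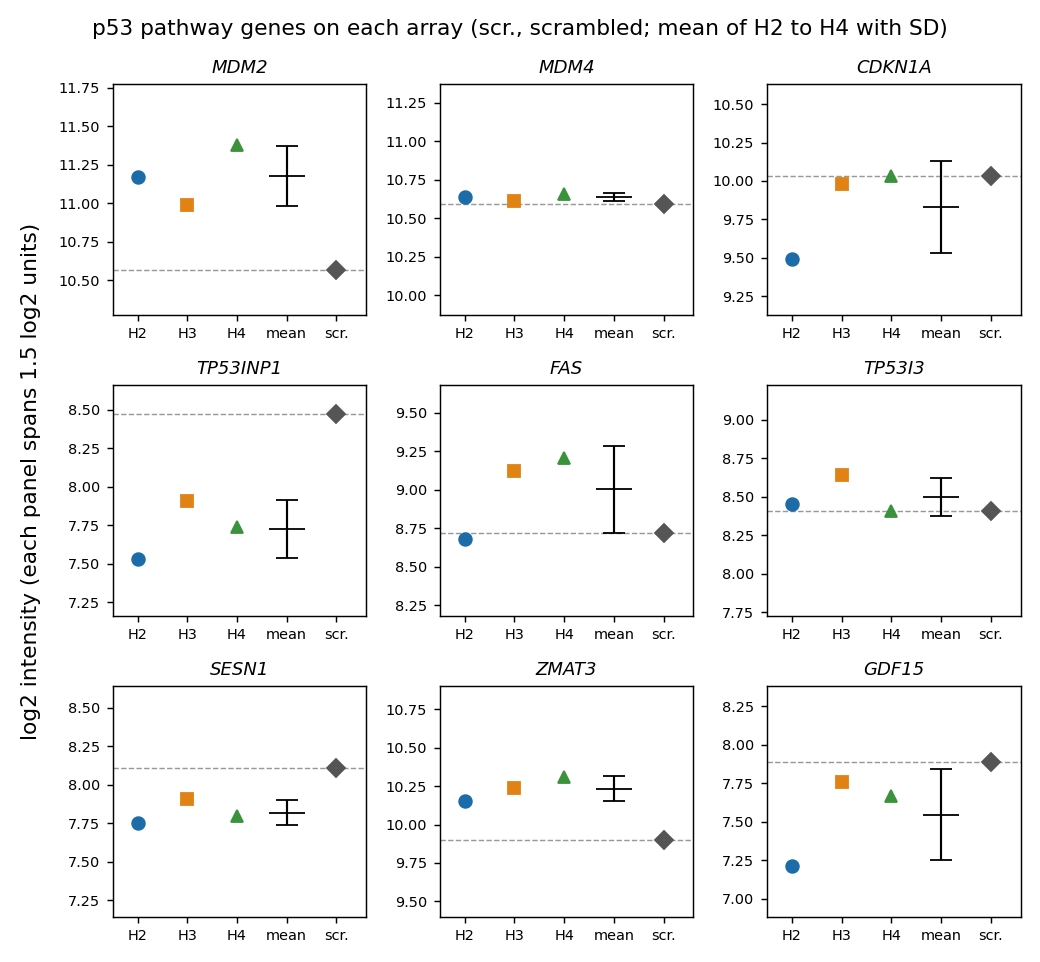
Log2 intensity of each gene on the H2, H3 and H4 arrays and on the scrambled array (dashed line at its level), with the mean and SD of the 3 knockdown arrays. Each panel has its own range of equal height, and levels of different genes are not comparable. MDM2 and ZMAT3 lie above the scrambled array with every hairpin, TP53INP1 and SESN1 lie below it with every hairpin, and the MDM4 points nearly coincide.

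MDM2 had the largest positive difference of the 9 genes. Its probe set (7956989) read 2296, 2041 and 2660 with H2, H3 and H4, against 1516 on the scrambled array, so all 3 knockdown arrays were higher and the groups did not overlap. These values are 151.5%, 134.6% and 175.5% of the scrambled one, and the mean log2 difference was 0.61 ± 0.19 (SD, n = 3). By mean difference MDM2 ranked 29th from the top of 13813 genes, and by single hairpin it ranked 124th with H2, 235th with H3 and 29th with H4. H4, which left the most ZFX signal, gave the highest MDM2 signal. H2 and H3 were nearly level in ZFX, at 52.1% and 52.4% of the scrambled value. Each hairpin has 1 array, and a relation between ZFX and MDM2 over the hairpins was not tested.

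MDM4, the partner of MDM2 in holding back p53, was nearly level on the 4 arrays. Its probe set (7909011) read 1593, 1559 and 1622 with H2, H3 and H4, against 1545 on the scrambled array. The 3 knockdown arrays were all higher, at 100.9% to 105.0% of the scrambled value, and the mean log2 difference was 0.043 ± 0.029 (SD, n = 3). The scrambled array lay 0.013 below the nearest hairpin, while the hairpins themselves spanned 0.06, so the difference is smaller than the spread between hairpins.

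CDKN1A encodes p21, the inhibitor of cyclin-dependent kinases through which p53 halts the cell cycle. It read 718.3, 1007 and 1045 with H2, H3 and H4, against 1047 on the scrambled array. H2 stood apart, at 68.6% of the scrambled value, and H3 and H4 stood at 96.2% and 99.8%. The mean log2 difference of -0.20 ± 0.30 (SD, n = 3) became -0.029 without H2.

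Among the genes with a role in cell death, TP53INP1, a stress-induced protein that promotes p53-dependent apoptosis and autophagy, had the largest difference of all 9 genes. Its probe set (8151890) read 184.9, 240.7 and 213.2 with H2, H3 and H4, against 354.7 on the scrambled array. All 3 knockdown arrays were lower, at 52.1%, 67.9% and 60.1% of the scrambled value, with no overlap. The mean log2 difference was -0.74 ± 0.19 (SD, n = 3), which ranked 89th from the bottom of 13813 genes. With H3 the gene was just short of the 1.5-fold mark that it passed with H2 and H4.

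FAS, the cell surface death receptor, differed between hairpins. It read 410.8, 557.7 and 591.3 with H2, H3 and H4, against 421.9 on the scrambled array, or 97.4%, 132.2% and 140.1%. H3 and H4 were higher and H2 was close to the scrambled array, so the groups overlapped. The mean log2 difference was 0.28 ± 0.28 (SD, n = 3), and without H2 it was 0.445. H2 also gave the lowest of the 3 knockdown values of CDKN1A, TP53INP1, SESN1, GDF15 and ZMAT3. This did not hold for MDM2, MDM4 or TP53I3.

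TP53I3, an oxidoreductase also known as PIG3 that is linked to p53-dependent apoptosis, read 349.9, 400.1 and 340.5 with H2, H3 and H4, against 340.6 on the scrambled array. Only H3, at 117.5%, was more than a few percent away, and the mean log2 difference of 0.09 ± 0.12 (SD, n = 3) was within the spread.

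SESN1, a sestrin that restrains the growth kinase mTORC1 and limits oxidative damage, was lower with similar size on each knockdown array. It read 215.6, 239.9 and 222.1 with H2, H3 and H4, against 276.4 on the scrambled array, which was the highest of the 4. The mean log2 difference was -0.29 ± 0.08 (SD, n = 3), or 81.6% of the scrambled level. ZMAT3, a zinc finger RNA-binding protein known as a p53 effector in growth suppression, was as even on the other side. It read 1135, 1205 and 1268 with H2, H3 and H4, against 957.7 on the scrambled array, the lowest of the 4. The mean log2 difference was 0.33 ± 0.08 (SD, n = 3), or 125.5% of the scrambled level.

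GDF15, a secreted stress cytokine of the TGF-beta family, read 148.1, 216.6 and 203.3 with H2, H3 and H4, against 237.6 on the scrambled array. All 3 were lower, but H2, at 62.3%, stood apart from H3 at 91.2% and H4 at 85.6%. The mean log2 difference of -0.35 ± 0.29 (SD, n = 3) became -0.179 without H2.

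**Figure D2:**
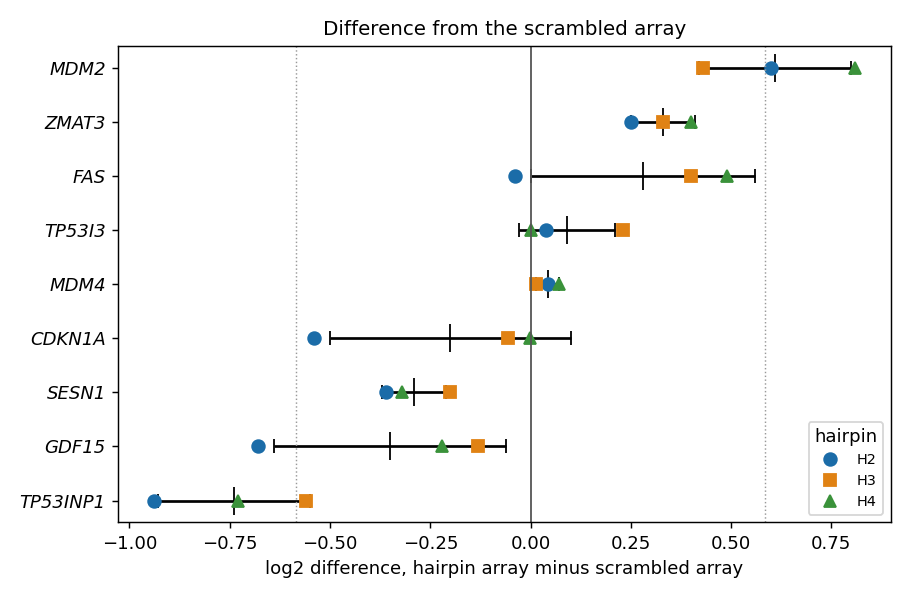
Log2 difference of each hairpin array from the scrambled array for the 9 genes, with the mean (vertical tick) and SD over the 3 hairpins (bar). Dotted lines mark 1.5-fold. MDM2 is at the top with a mean of 0.61 and TP53INP1 at the bottom with -0.74, and the wide bars of FAS, CDKN1A and GDF15 come from H2 lying lower than H3 and H4.

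By single hairpin, 3 of the 9 genes were at least 1.5-fold away from the scrambled array with H2 (MDM2, TP53INP1 and GDF15), beside the 6.6% of all genes given above. None was with H3, where 1.67% of all genes were, and 2 were with H4 (MDM2 and TP53INP1), where 2.78% were. These comparisons have 1 array a side and carry no p-value. As a further description, chosen after the values were seen, the scrambled array lay outside the 3 hairpins by more than the hairpins' own range for MDM2, TP53INP1, SESN1 and ZMAT3, that is for 4 of 9 genes, where this held for 10.8% of all genes. For MDM2 the scrambled array was 0.43 from the nearest hairpin and the hairpins spanned 0.38. For TP53INP1 the corresponding values were 0.56 and 0.38, for SESN1 0.20 and 0.15, and for ZMAT3 0.25 and 0.16.

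None of the 9 genes passed limma's moderated test of the 3 knockdown arrays against the scrambled array. All had an adjusted p of 0.9998 over 13813 genes in limma, and 0% of all genes passed. Without adjustment, 2 of the 9 genes (TP53INP1 and MDM2) had a p under 0.05 in limma, as did 3.23% of all genes. An exact permutation test over the 4 arrays (two-sided) gave p = 0.25 for MDM2, TP53INP1, SESN1 and ZMAT3, the smallest it can give. Any gene reaches this value when the scrambled array lies furthest from the mean of the other arrays. It therefore adds nothing to the gap described above for the same genes, and its share over all genes was not computed. The fit has 2 residual degrees of freedom and treats the lone scrambled array as varying like the knockdown arrays.

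Other genes that act on p53 showed small differences. Of 28 regulators and relatives of p53, 23 were kept. With all 3 hairpins 6 (26.1%) were lower and 5 (21.7%) were higher, beside 30.6% and 16.9% of all genes. The median difference of the 23 was -0.034, where the median of all genes was -0.035. KAT5, an acetyltransferase that modifies p53, stood at 124.4%, 127.3% and 111.9% of the scrambled level with H2, H3 and H4. RCHY1, a ubiquitin ligase that also targets p53, stood at 79.4%, 80.2% and 95.1%. PPP1R13B, a p53-binding protein that favours apoptotic targets, stood at 90.9%, 98.0% and 80.3%, and its mean log2 difference of -0.16 became -0.083 without H4. HUWE1, a further ubiquitin ligase for p53, averaged 91.1% of the scrambled level. None of the 23 passed the limma test, with or without adjustment, where 3.23% of all genes were under 0.05 without it.

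Further p53 targets were listed from general knowledge, apart from the 9 genes, and more of them were lower than higher. Of 74 listed, 62 were kept. TRIM22 and ANKRA2 were kept only through the scrambled array, since their knockdown means lie under the filter, so counts and medians of the target genes are given over the other 60. Of these, 27 (45.0%) were lower and 4 (6.7%) were higher with all 3 hairpins, beside the 30.6% and 16.9% of all genes, with a median difference of -0.12. The medians by hairpin were -0.128, -0.087 and -0.095 with H2, H3 and H4, against -0.030, -0.021 and -0.046 over all genes. After centring each array on its median the shares were 35.0% lower and 11.7% higher, beside 23.3% and 23.6% of all genes. In limma 0 of the 60 passed after adjustment. Without adjustment 2 of the 60 (CYFIP2 and SCO2) had a p under 0.05 in limma, as did 3.23% of all genes. Without H2, H3 or H4 in turn, the median was -0.09, -0.133 and -0.111.

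Among 12 kept targets that act on the cell cycle, 6 (50%) were lower and 0 were higher with all 3 hairpins (median -0.15). Over all genes 30.6% were lower and 16.9% were higher. DUSP5, a phosphatase of the kinase ERK, stood at 60.6%, 82.2% and 84.0% of the scrambled level with H2, H3 and H4. PLK3, a stress-responsive kinase, was more even, at 89.6%, 83.5% and 82.3%. CCNG1, cyclin G1, averaged 86.4% and PLK2, a kinase of centriole duplication, 89.1%.

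Of 14 kept targets linked to cell death or survival, 7 (50%) were lower and 1 (7.14%) was higher with all 3 hairpins (median -0.13). The shares of all genes were 30.6% and 16.9%. PMAIP1, the BH3-only protein NOXA, read 1446, 2882 and 2958 with H2, H3 and H4, against 4552 on the scrambled array. All 3 knockdown arrays were at least 1.5-fold lower, and H2 stood apart from the others. Its mean log2 difference of -0.98 ± 0.59 (SD, n = 3) was larger than that of any of the 9 genes but had a wider spread, and without H2 it was -0.64. The death receptor TNFRSF10B stood at 85.2%, 96.9% and 71.4% of the scrambled level, and its mean log2 difference of -0.25 became -0.138 without H4. TRAF4 averaged 84.9% of the scrambled level, and APAF1, the scaffold of the apoptosome, stood at 88.2%, 91.6% and 90.8% with H2, H3 and H4.

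In the list of repair and metabolic targets, 7 of 17 (41.2%) were lower and 2 (11.8%) were higher with all 3 hairpins. Over all genes the shares were 30.6% and 16.9%. The list's median difference of -0.13 became -0.076 without H2. RRM2B, the p53-induced subunit of ribonucleotide reductase, rested mainly on H2, with 47.7%, 77.1% and 92.8% of the scrambled level for H2, H3 and H4. FUCA1, a lysosomal fucosidase, was even at 79.0%, 75.2% and 81.8%, and GAMT, an enzyme of creatine synthesis, averaged 82.6%. SCO2, a copper chaperone for cytochrome c oxidase, went the other way at 128.7%, 119.3% and 123.9%.

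Of the remaining 19 kept targets, 17 were above the filter in both groups. With all 3 hairpins 7 (41.2%) of these were lower and 1 (5.88%) was higher, beside 30.6% and 16.9% of all genes. The median of the 17 was -0.036 and lay at that of all genes. With TRIM22 and ANKRA2 included it was -0.063, and then -0.031, -0.022 and -0.037 after median centring, quantile normalization and cyclic loess. TRIM22, an antiviral protein that is also induced by interferon, read 100.7, 118.4 and 109.3 with H2, H3 and H4, against 185.8 on the scrambled array, where the filter stands at 110. As its knockdown readings lie around the filter, it could only differ in this direction, and its values are given as a description. CYFIP2, a component of the WAVE complex, stood at 73.9%, 65.8% and 59.3% of the scrambled level. ANKRA2, kept in the same way, stood at 53.9%, 62.6% and 95.6%, and PHLDA3, an inhibitor of AKT, at 61.9%, 83.4% and 79.5%.

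Genes that p53 is known to lower through p21 and the DREAM repressor complex showed no common direction. Of 17 kept, 6 (35.3%) were lower and 2 (11.8%) were higher with all 3 hairpins, with a median of -0.034. These shares compare with 30.6% and 16.9% of all genes. CDC25A, a phosphatase that starts S phase, stood at 69.3%, 76.6% and 70.2% of the scrambled level and BUB1, a spindle checkpoint kinase, at 78.5%, 77.9% and 89.7%. PLK1, a mitotic kinase, stood at 115.6%, 114.4% and 112.9%, and FOXM1, a transcription factor of mitotic genes, averaged 92.6%. In limma 0 of the 17 passed after adjustment, and CDC25A alone was under 0.05 without it, where 3.23% of all genes were.

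**Figure D3:**
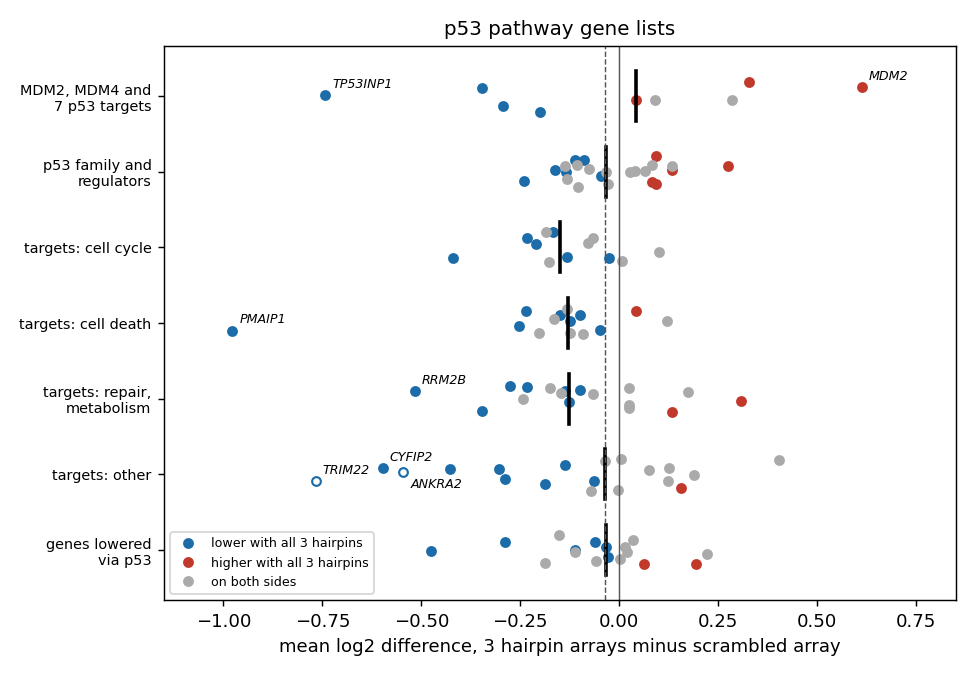
Mean log2 difference of each kept gene, 3 hairpin arrays minus the scrambled array, by list (1 point a gene; vertical position within a list has no meaning). Thick bars are list medians over filled points, and the dashed line is the median of all genes, -0.035. Open circles are TRIM22 and ANKRA2, which passed the intensity filter only through the scrambled array. The medians of the cell cycle, cell death and repair lists lie to the left of the dashed line and that of the other targets lies on it, PMAIP1 is the lowest point and MDM2 the furthest to the right.

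The genes with the pattern most like that of MDM2, by Euclidean distance over its 3 log2 differences, were PLCB1, ZNF814, BSDC1, METTL15 and IFNL2. PLCB1, a phospholipase C, was the nearest at a distance of 0.19, with differences of 0.41, 0.44 and 0.79 for H2, H3 and H4. For TP53INP1 the nearest were MYO5C, TRIM22, SEC61A2, EVI2B and DENND2A. MYO5C, a myosin motor, lay at a distance of 0.05, with differences of -0.89, -0.53 and -0.73, and TRIM22, which is itself on the target list, at 0.11. Of these 10 genes TRIM22 was kept only through the scrambled array and IFNL2 only through the knockdown arrays. The 3 differences share the scrambled array, so this likeness is a description of 4 arrays.

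**Figure D4:**
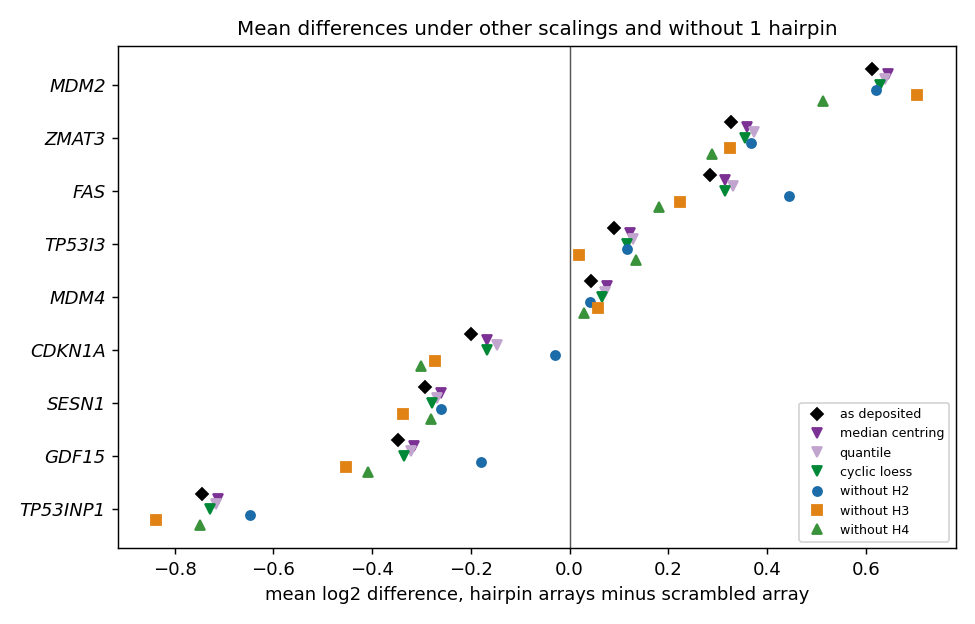
Mean log2 difference of the 9 genes (hairpin arrays minus scrambled array) as deposited, after 3 other scalings, and without each hairpin in turn. No mean crosses zero. MDM2 stays between 0.51 and 0.70 and TP53INP1 between -0.84 and -0.65, while CDKN1A comes within 0.029 of zero without H2.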

How the data were processed

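RNA of 4 samples was hybridised to 1 array each. The authors deposited 1 intensity per probe set and array on a linear scale (medians of 228.1, 227.5, 226.0 and 232.3 for H2, H3, H4 and scrambled). The submitters' processing notes name RMA as the summary and normalization method. No version, software or genome build was found in the sources used here. RMA brings the arrays to a common distribution, so a change in total RNA would not show. No scan batch was examined, and the number of arrays limits the precision.

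Log2 of the intensities was taken. Of 33297 probe sets, 19460 have exactly 1 symbol in the platform annotation and 1754 have several. Per gene the probe set with the highest mean was kept, and genes under the 25th percentile of mean log2 intensity (6.78) were left out. The knockdown arrays were set against the scrambled array with limma 3.58.1 in R 4.3.3 (eBayes with intensity trend) and Benjamini-Hochberg adjustment over 13813 genes at 0.05, tested on simulated data. In limma, p-values rest on the spread among the knockdown arrays, moderated over genes, because the lone scrambled array has no spread of its own. They reach no further than these samples.

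The genes and lists were chosen with earlier results of these data known. Named genes were the 9, ZFX, up to 4 genes per list with the largest mean difference among those on 1 side with all 3 hairpins, and the 5 nearest MDM2 and TP53INP1. Markers named by their side of the filter, and genes named for an unadjusted p, were chosen after their values were seen. The alternatives were 3 other scalings, the mean over probe sets, 2 other filters, no intensity trend, a lower and a higher fold, and leaving out each hairpin. Restricting lists to genes above the filter in both groups was chosen after seeing the data. Python 3.11.15, pandas 2.3.3 and matplotlib 3.10.9 were used.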

Additional observations from a re-analysis of the deposited data

How the results depend on the processing

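The mean difference of each of the 9 genes kept its direction under the 10 alternatives wherever it could be computed (87 values), and none passed the adjusted test in any of them (smallest adjusted p = 0.999 in limma). The 34 other named genes likewise kept their direction wherever a value could be computed. MDM2 ranged from 0.51 to 0.70, TP53INP1 from -0.84 to -0.65, SESN1 from -0.34 to -0.26 and ZMAT3 from 0.29 to 0.37. CDKN1A ranged from -0.30 to -0.03, GDF15 from -0.45 to -0.18 and FAS from 0.18 to 0.44, each with the value nearest or furthest from zero set by leaving out H2. TP53I3 ranged from 0.02 to 0.14, lowest without H3. Without H2 the differences of DUSP5 and RRM2B became -0.267 and -0.242, and the medians of the p53 regulators and of the DREAM targets -0.014 and -0.022. Without H3 the regulators' median was -0.063. Counts moved as follows. Under quantile normalization 5 genes, not 3, were higher with all 3 hairpins (FAS and TP53I3 were added), and the count ran from 3 to 4 when 1 hairpin was left out. The 50th percentile filter removed TP53INP1, SESN1 and GDF15, which left 1 gene lower with all 3 hairpins, 1 past 1.5-fold with H2 and 1 with H4. With the lower fold limit, 1 gene was lower (TP53INP1) and 1 higher (MDM2) with all 3 hairpins, and with 2-fold there were 0 of each. Leaving out 1 hairpin gave 0 to 1 gene at least 1.5-fold lower and 0 to 1 at least 1.5-fold higher with both others, the 1 in each case without H3. No paired analysis was possible because the scrambled group holds 1 array.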
